A study of Mus musculus with 4 samples.

Results

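The heat shock genes examined here were 10 genes, chaperones and their regulator Hsf1, in the leukemia-initiating cells (LICs) of the murine MLL-AF9 model, chosen by name, with no threshold on a measured value: Hspa1a, Hspa1b, Hsph1, Dnajb1, Hsp90aa1, Hspa8, Hsp90ab1, Dnaja1, Hspd1 and Hsf1. They were 10 of the 27179 genes with a deposited value, and all 10 were among the 13230 genes tested. LICs, sorted from leukemic bone marrow of C57BL/6 mice that the labels give as 6 weeks old, were profiled by RNA-sequencing, with 2 WT libraries and 2 libraries of genotype CD274-/-, called CD274-null. In both groups the leukemia came from Lin- fetal liver cells that carried a retroviral MLL-AF9 fusion with a YFP tag and were transplanted into lethally irradiated C57BL/6 recipients, and the study defines LICs as Mac-1+/c-Kit+. The labels state a sort by FACS, whereas the methods on the libraries speak of RNA from tissue. The round of transplantation and the number of mice behind a library are not given in the sources used here. Neither is a gate on YFP for these libraries, so residual recipient cells could be present. The p-values measure the spread between the 2 libraries of a label, and the number of animals behind that spread is not known. The question put to these genes was whether their RNA followed the genotype label or the single library. Where 4 values of a gene are given, they stand in the order WT replicates 1 and 2, CD274-null replicates 1 and 2.

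Heat shock proteins keep other proteins folded. HSP70 proteins bind unfolded stretches in a cycle driven by ATP, J-domain proteins such as DNAJB1 and DNAJA1 bring them their substrates, HSP110 (Hsph1) exchanges their nucleotide, HSP90 proteins finish the folding of kinases and receptors, and the HSP60 chaperonin (Hspd1) folds proteins in mitochondria. When proteins misfold, the transcription factor HSF1 is released from chaperones, forms trimers and binds heat shock elements, inverted repeats of the unit GAA, in front of the inducible genes. Heat, oxidation and other proteotoxic stresses induce Hspa1a and Hspa1b, whereas Hspa8 and Hsp90ab1 are made at all times in dividing cells.

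The libraries were first checked. Reads recovered from the values summed to between 8453137 and 11049275 per library. FPKM of Cd274 (fragments scaled by gene length and by mapped reads) was 2.80 and 0.945 (WT), then 1.43 and 2.29 (CD274-null), so the deleted gene did not separate the labels and each direction below rests on them. The deleted part of Cd274 is not given in the sources used here, and 1 value per gene cannot show whether the reads came from outside it. The 10 marker genes of the sorted cells were above 0 in each library. Itgam, which encodes a chain of Mac-1, lay between 100.2 and 174 FPKM, Kit between 6.59 and 19.5 and Hoxa9 between 71.3 and 75.8. Not all 10 were steady. Cd34 had 4.32 and 31.7 (WT), then 14.0 and 28.9 (CD274-null). Mpo had 444 and 403 (WT), then 1427 and 925 (CD274-null) (adjusted p = 0.251 from limma). Markers of other cell types varied as well. The summed FPKM of 10 neutrophil markers was 43483 and 8796 (WT), then 18350 and 31402 (CD274-null), and that of 9 erythroid markers was 55.8 in WT replicate 2 and at most 5.41 elsewhere. Among plasma cell markers, Igkc had 8.64 and 7.98 (WT), then 214 and 189 (CD274-null), and Jchain 0.370 and 0.514, then 12.3 and 10.5 (adjusted p = 0.00245 and 0.0369 from limma). The erythroid gene Slc4a1 was listed at 0 in each library. Xist FPKM was 2.57 and 51.1 (WT), then 107 and 68.7 (CD274-null). The summed FPKM of 4 Y chromosome genes was 86.0 and 66.2 (WT), then 0.0460 and 29.4 (CD274-null). The 2 libraries of a label thus did not hold the same mix of male and female cells. The part of sex in the differences between the CD274-null libraries below was not tested.

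Sequence bears on these genes in 2 ways, through the heat shock elements in front of them and through their near-copies. RefSeq (GRCm38.p6) gave 11 promoter windows for 6 of the 10 genes, and the 250 bases before each transcript start were searched on both strands for GAANNTTC or TTCNNGAA (2 units) and for the same letters followed directly by NNGAA or NNTTC, respectively (3 units). Windows of Hspa8, Hsp90aa1, Hsp90ab1 and Hsf1 were not analysed here. The windows of Hspa1a, on chr17:34972157-34972406, and of Hspa1b, on chr17:34959239-34959488, both on the minus strand, are shown because these genes varied most. The window of Dnajb1, on chr8:83607925-83608174 of the plus strand, is shown because it varied next most. Capitals mark the 2-unit element.
Hspa1a: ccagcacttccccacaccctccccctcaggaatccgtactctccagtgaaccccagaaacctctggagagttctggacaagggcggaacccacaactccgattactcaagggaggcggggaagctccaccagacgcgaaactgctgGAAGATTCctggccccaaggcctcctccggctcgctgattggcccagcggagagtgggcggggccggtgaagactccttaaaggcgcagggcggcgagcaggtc
Hspa1b: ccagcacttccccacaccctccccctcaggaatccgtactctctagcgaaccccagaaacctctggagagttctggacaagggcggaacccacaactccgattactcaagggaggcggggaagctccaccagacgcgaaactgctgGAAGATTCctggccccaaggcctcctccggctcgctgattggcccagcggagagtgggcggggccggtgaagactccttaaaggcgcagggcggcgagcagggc
Dnajb1: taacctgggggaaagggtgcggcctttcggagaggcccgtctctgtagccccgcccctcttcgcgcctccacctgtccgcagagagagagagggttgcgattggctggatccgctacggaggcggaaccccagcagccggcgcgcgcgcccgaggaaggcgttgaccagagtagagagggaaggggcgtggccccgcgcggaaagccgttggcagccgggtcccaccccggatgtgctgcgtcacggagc

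The Hspa1a and Hspa1b windows were identical at 247 of 250 bases and held the same single 2-unit element, from 104 to 97 bases before the start. The 2 Dnajb1 windows held no element with these letters. For the other genes the 30 bases around the element are shown, to set the only 3-unit element beside those of 2 units. They lie on chr5:149636351-149636380 (minus strand) for Hsph1, on chr4:40722333-40722362 (plus strand) for Dnaja1 and on chr1:55088053-55088082 (minus strand) for Hspd1, where the capitals span 18 bases, covered by 2 overlapping 3-unit matches.
Hsph1: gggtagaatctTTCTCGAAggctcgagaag
Dnaja1: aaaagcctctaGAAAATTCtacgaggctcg
Hspd1: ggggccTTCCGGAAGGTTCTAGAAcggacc

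A 2-unit element lay in front of at least 1 start of 5 of the 6 genes, and 14.5% of all 27025 genes with a window had one. The 3-unit element, present in 0.514% of these genes, was found only for Hspd1 among the 6. Both the Hsph1 and the Hspd1 element lie inside the span that RefSeq annotates for the gene, since each gene has other starts further upstream. A match is a stretch of letters and not a measured binding site.

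**Figure D1:**
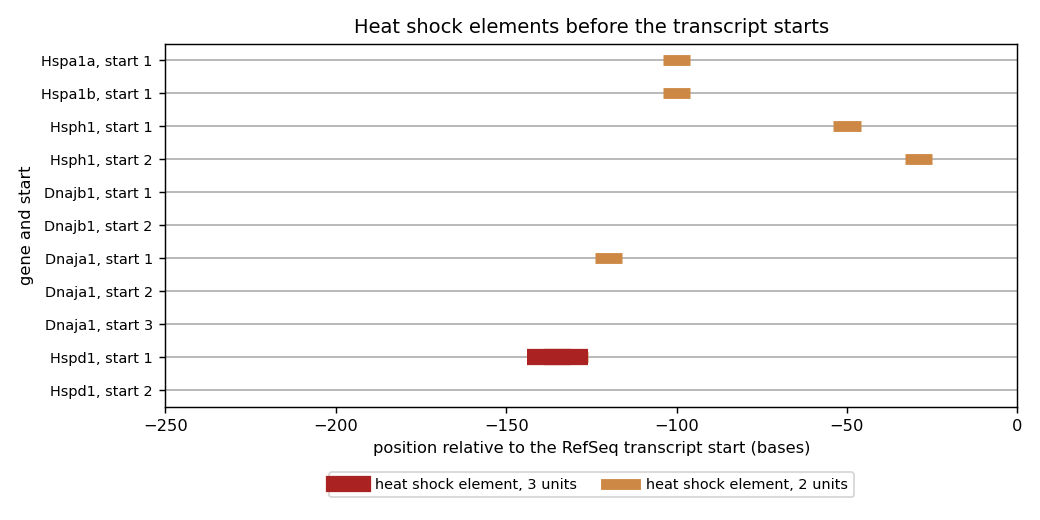
Heat shock elements in the 250 bases before each RefSeq transcript start (x axis, bases relative to the start), 1 line per start of the 6 genes with a window. Orange blocks are 2-unit and red blocks 3-unit elements, and the 3-unit element stands only before start 1 of Hspd1.

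Near-copies limit what a value of one gene means, since the reads were about 50 bases long. Positions of genes are those of RefSeq on GRCm38. Hspa1a (chromosome 17, 34969359 to 34972156) and Hspa1b (chromosome 17, 34956429 to 34959238) have 1 exon each and encode almost the same inducible HSP70, and 66.3% of the 50-base stretches of the Hspa1a transcript and 62.3% of those of Hspa1b also occur in another gene's transcript, mostly in each other. The share was 58.5% for Hsp90aa1, 52.7% for Hspa8, 44.8% for Hspd1 and 28.8% for Dnaja1, where the copies were mostly predicted genes and pseudogenes. It was 4.49% for Hsp90ab1, 0.441% for Dnajb1 and 0 for Hsph1 and Hsf1. How the authors counted a read with several matches is not given in the sources used here, so the split between Hspa1a and Hspa1b is uncertain.

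The inducible HSP70 genes differed most, and by library. Hspa1a had an FPKM of 12.4 and 13.3 (WT), then 2.91 and 130.2 (CD274-null). Hspa1b had 17.4 and 27.0 (WT), then 6.28 and 226.6 (CD274-null). For both genes CD274-null replicate 1 was the lowest and CD274-null replicate 2 the highest of the 4 libraries, with the WT libraries between them, so the groups overlapped. The means were 12.8 ± 0.644 (SD, n = 2) and 66.6 ± 90.04 for Hspa1a and 22.2 ± 6.77 and 116 ± 156 for Hspa1b. Within the CD274-null label, replicate 2 exceeded replicate 1 by 44.8-fold for Hspa1a (95% exact binomial interval 35.5 to 57.3, from 3629 and 72 recovered reads) and by 36.1-fold for Hspa1b (28.8 to 45.8, from 3170 and 78). These intervals cover counting error only. Within the WT label, replicate 1 over replicate 2 was 0.931 for Hspa1a (0.807 to 1.07) and 0.645 for Hspa1b (0.552 to 0.754). Added together, the pair had an FPKM of 29.8 and 40.3 (WT), then 9.19 and 356.8 (CD274-null), and the ratio of Hspa1a to Hspa1b stayed between 0.464 and 0.710 in the 4 libraries.

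The J-domain genes that serve HSP70 differed less. Dnajb1 (chromosome 8, 83608175 to 83612653), the main heat-induced partner of HSP70, had an FPKM of 75.1 and 53.1 (WT), then 61.7 and 253 (CD274-null). CD274-null replicate 2 stood 4.10-fold above CD274-null replicate 1 (interval 3.76 to 4.48), while replicate 1 lay between the WT libraries. Dnaja1 (chromosome 4, 40722468 to 40734965), a J-domain gene grouped here as constitutive, had 6.95 and 5.71 (WT), then 11.05 and 25.6 (CD274-null). Here both CD274-null libraries lay above both WT libraries, and the CD274-null libraries differed 2.32-fold from each other (2.10 to 2.56).

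The large chaperones followed the same order of CD274-null libraries with smaller steps. Hsph1 (chromosome 5, 149616843 to 149636498), the inducible HSP110, had 9.44 and 6.33 (WT), then 13.3 and 26.3 (CD274-null), a 1.98-fold step between the CD274-null libraries (1.76 to 2.23). Hsp90aa1 (chromosome 12, 110691036 to 110696395), the inducible HSP90, had 89.4 and 60.8 (WT), then 66.1 and 111 (CD274-null), a 1.68-fold step (1.59 to 1.79). Hspa8 (chromosome 9, 40801276 to 40805202), the constitutive HSP70, had 218 and 132 (WT), then 167 and 318 (CD274-null), a 1.90-fold step (1.71 to 2.12). For Hsp90aa1 and Hspa8 the groups overlapped, and for Hsph1 the CD274-null values lay above both WT values.

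Hsp90ab1, Hspd1 and Hsf1 did not share that step. Hsp90ab1 (chromosome 17, 45567778 to 45573261) is the constitutive HSP90 and was the most abundant of the 10. Its FPKM was 983 and 1166 (WT), then 807 and 928 (CD274-null). The CD274-null values lay below both WT values, as in 2883 of the 13230 tested genes. The step within CD274-null was 1.15-fold (1.13 to 1.17). Hspd1 (chromosome 1, 55077833 to 55088243), the mitochondrial HSP60 and the only gene with the 3-unit element shown above, had 71.2 and 31.2 (WT), then 48.0 and 46.2 (CD274-null), a ratio of 0.962 within CD274-null (0.881 to 1.05). Its larger difference was within WT, where replicate 1 exceeded replicate 2 by 2.28-fold (2.10 to 2.49). Hsf1 (chromosome 15, 76477362 to 76501155), the regulator, had 28.5 and 21.5 (WT), then 43.7 and 40.1 (CD274-null), with a ratio of 0.917 within CD274-null (0.830 to 1.01), so its RNA did not follow that of the inducible genes. HSF1 acts through its release and trimer formation, which RNA does not show.

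**Figure D2:**
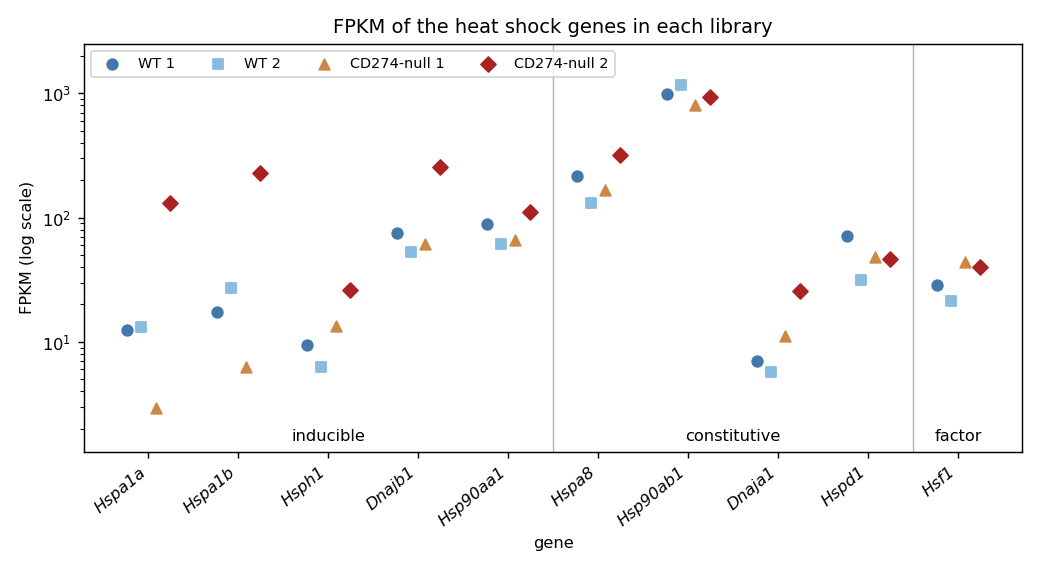
FPKM (log scale) of the 10 heat shock genes, 1 symbol per library, grouped as inducible, constitutive and the factor Hsf1. CD274-null replicate 2 is the highest library for 7 of the 10 genes, beside 21.0% of all tested genes, and Hspa1a spans 2.91 to 130.2.

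By level, Hsp90ab1 stood alone, since its lowest library (807) exceeded the highest of Hspa8 (318). The order by mean FPKM over the 4 libraries was then Hspa8 (209), Dnajb1 (111), Hsp90aa1 (81.9), Hspa1b (69.3), Hspd1 (49.1), Hspa1a (39.7), Hsf1 (33.5), Hsph1 (13.8) and Dnaja1 (12.3). Each of these neighbours overlapped in range with the next. One library set part of this order: without CD274-null replicate 2, Hsp90aa1 (72.1) stood above Dnajb1 (63.3), and Hspa1b (16.9) and Hspa1a (9.51) below both Hspd1 (50.1) and Hsf1 (31.2). FPKM divides by a gene length that the sources used here do not name, so the order rests on those lengths as well.

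Between the genotype labels, 0 of the 10 genes passed the thresholds of the study (in limma, an unadjusted p under 0.01 together with more than a 1.5-fold change on the log2(FPKM + 0.5) scale), where 3.63% of all tested genes did, and limma's voom on the recovered reads also gave 0. At an unadjusted p under 0.05 there were 3 of 10, Hsph1, Dnaja1 and Hsf1, against 13.7% of all tested genes. After Benjamini-Hochberg adjustment in limma the 10 values lay between 0.299 and 0.998, and 0.0756% of tested genes had an adjusted p under 0.05. Dnaja1 had a log2 fold change (CD274-null minus WT) of 1.35 (standard error 0.42, 95% interval 0.34 to 2.36, adjusted p = 0.299 from limma). For Hsph1 it was 1.22 (standard error 0.39, interval 0.28 to 2.16, adjusted p = 0.303 from limma) and for Hsf1 0.74 (standard error 0.23, interval 0.18 to 1.31, adjusted p = 0.299 from limma). In these 3 genes both CD274-null libraries lay above both WT libraries, as they did in 25.6% of all tested genes.

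The intervals of the most inducible genes were wide. The log2 fold change was 0.67 for Hspa1a (standard error 1.51, interval -2.99 to 4.32) and 0.82 for Hspa1b (standard error 1.46, interval -2.72 to 4.36), so the 4 libraries allow a large difference between the labels in either direction. Dnajb1 had 0.98 (interval -0.53 to 2.49), Hspa8 0.44 (-0.51 to 1.39), Hsp90aa1 0.22 (-0.58 to 1.01), Hspd1 -0.00327 (-0.94 to 0.93) and Hsp90ab1 -0.31 (-0.9958 to 0.38). The median over the 10 genes was 0.71, beside 0.01 over all tested genes, and it was -0.03 without CD274-null replicate 2 and 1.303 without CD274-null replicate 1. Which library was used decided the sign for several genes. Without CD274-null replicate 2 the log2 fold change was -1.96 for Hspa1a, -1.71 for Hspa1b, -0.03 for Dnajb1, -0.16 for Hsp90aa1 and -0.02 for Hspa8. Without CD274-null replicate 1 it was 3.30 for Hspa1a, 3.36 for Hspa1b, 1.996 for Dnajb1 and 1.94 for Dnaja1. Without WT replicate 1 it was 0.94 for Hsf1, and without WT replicate 2 it was -0.06 for Hsp90aa1. With 1 library left in a group, limma assumes that it varies like the other group.

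**Figure D3:**
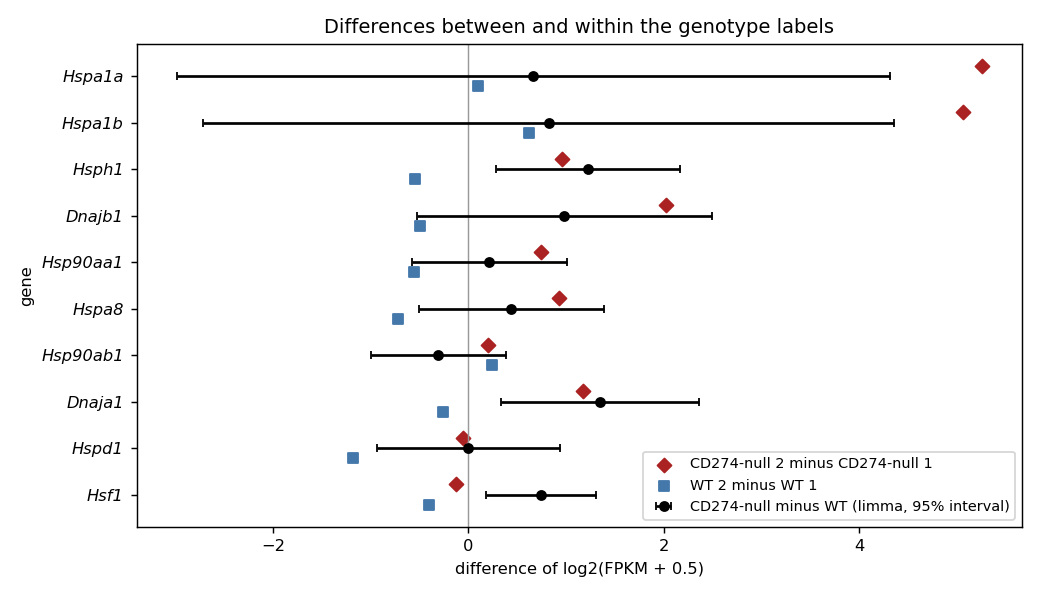
Differences of log2(FPKM + 0.5) for the 10 genes: CD274-null minus WT (black, limma with 95% interval), CD274-null replicate 2 minus replicate 1 (red) and WT replicate 2 minus replicate 1 (blue). For Hspa1a and Hspa1b the red points, at 5.26 and 5.07, lie beyond the intervals of the genotype difference.

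The difference within the CD274-null label exceeded that between the labels, in absolute log2 units, for 6 of the 10 genes, beside 45.5% of all tested genes. The members' median absolute difference was 0.94 between the CD274-null libraries and 0.52 between the WT libraries, beside 0.28 and 0.34 over all tested genes. CD274-null replicate 2 was at least 2-fold above replicate 1 for 4 of 10 genes (Hspa1a, Hspa1b, Dnajb1 and Dnaja1) and at least 2-fold below for 0, where 3.37% of all tested genes were at least 2-fold above. Hspa1a and Hspa1b ranked 2 and 3 of the 13230 tested genes by this difference, Dnajb1 ranked 98, Dnaja1 342, Hsph1 483, Hspa8 511 and Hsp90aa1 725. In the WT pair 1 of 10, Hspd1, was at least 2-fold lower in replicate 2, beside 4.86% of tested genes. The median of all genes was itself -0.14 between the CD274-null libraries, and with medians made equal 6 of the 10 genes were at least 2-fold above, beside 4.24% of all tested genes. With 1 library on each side there is no test of these differences.

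**Figure D4:**
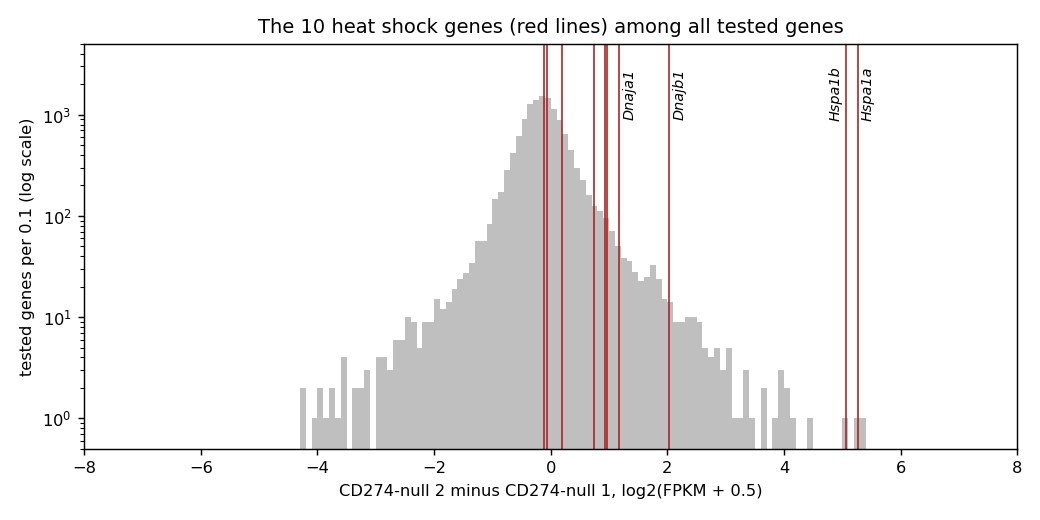
Number of tested genes (log scale) by the difference between the CD274-null libraries in log2(FPKM + 0.5), with the 10 heat shock genes as red lines. Hspa1a (5.26) and Hspa1b (5.07) lie at the right end, Dnajb1 at 2.03 and Dnaja1 at 1.18.

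Set against the constitutive genes of the same library, the inducible ones were highest in CD274-null replicate 2, mostly through Hspa1a and Hspa1b. The mean log2(FPKM + 0.5) of Hspa1a, Hspa1b, Hsph1, Dnajb1 and Hsp90aa1 minus that of Hspa8, Hsp90ab1, Dnaja1 and Hspd1 was -1.92 and -1.61 (WT), then -2.48 and -0.23 (CD274-null). The 2 libraries with the lowest and the highest value thus carry the same label. Without Hspa1a and Hspa1b, which share sequence, it was -1.35 and -1.40 (WT), then -1.28 and -0.59 (CD274-null). Single inducible genes did not all exceed constitutive ones. The log2 difference between the CD274-null libraries was 0.96 for Hsph1 and 0.75 for Hsp90aa1, beside 1.18 for Dnaja1 and 0.93 for Hspa8. The split into inducible and constitutive genes was assigned here, and no response to stress was measured. In bulk samples more cells of a type and more RNA per cell cannot be told apart. Among markers of other cells, neutrophil genes had a higher summed FPKM in CD274-null replicate 2 than in replicate 1 (31402 against 18350), and their sum was 43483 in WT replicate 1, where Hspa1a was 12.4, and 8796 in WT replicate 2, where it was 13.3. Summed markers of B cells were 13.3 and 36.8 (WT), then 37.2 and 40.7 (CD274-null). Those of plasma cells were 186 and 75.8, then 361 and 308, of which Xbp1, a factor that many cells express, gave 177 and 66.8, then 133 and 106, while Igkc and Jchain followed the label as given above. Those of macrophages were 198 and 202, then 176 and 218, mostly from Vcam1, Cd68 and Adgre1. The other macrophage markers, C1qa, C1qb, C1qc, Mertk and Marco, were lower in CD274-null replicate 2 than in replicate 1. The median log2 difference of the 6 tested macrophage markers was -0.37. Beyond these values, the part of other cells in the difference was not tested. The difference between the CD274-null libraries rose with the GC content of genes across 12403 tested genes (Spearman's rho 0.21, genes not being independent replicates), and after a correction for GC content it was 5.20 for Hspa1a, 5.02 for Hspa1b and 2.11 for Dnajb1.

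Other genes of the chaperone network were compared in the same way, from a list that does not hold each J-domain gene. Of 91 listed genes outside the 10 (other HSP70 proteins, J-domain proteins, small heat shock proteins, chaperonins, co-chaperones of HSP90 and HSP70, and the HSF family), 75 were tested, and 2 passed the thresholds of the study as higher and 0 as lower in the libraries labelled CD274-null (2.67%, beside 3.63% of all tested genes). At an unadjusted p under 0.05 there were 5 (6.67%, beside 13.7%). Their median log2 fold change was -0.08. The first, Dnajb13, a J-domain protein known from cilia and sperm flagella, had an FPKM of 4.31 and 4.55 (WT), then 19.7 and 43.5 (CD274-null) (limma's log2 fold change 2.60 with a standard error of 0.40, adjusted p = 0.157). The second, Hspa2, an HSP70 known from the testis, had 36.3 and 17.7 (WT), then 58.0 and 130 (CD274-null) (limma's log2 fold change 1.75 with a standard error of 0.48, adjusted p = 0.274), and its unadjusted p of 0.00969 lay close to the threshold. Dnajc25, a J-domain gene outside the list that was named after its values were seen, also passed as higher, with an FPKM of 5.35 and 5.43 (WT), then 19.4 and 25.3 (CD274-null), a log2 fold change of 1.94 with a standard error of 0.26 and limma's adjusted p = 0.128.

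The most abundant genes of each list did not pass. Among the subunits of the cytosolic chaperonin, which folds actin and tubulin, Cct2 had an FPKM of 308 and 266 (WT), then 237 and 186 (CD274-null), and Cct5 had 296 and 244 and then 238 and 175. In both, the CD274-null values lay below both WT values, as in 2883 of the 13230 tested genes. They were the only such genes among the 9 tested chaperonins. Neither difference passed the thresholds (adjusted p = 0.455 and 0.526 from limma). Hspa9, the mitochondrial HSP70, had 129 and 70.4 (WT), then 86.5 and 55.6 (CD274-null). Hspa14, an HSP70 bound to ribosomes, had 77.4 and 49.3 and then 62.4 and 61.8. The J-domain gene Dnajc8 lay between 65.7 and 101 in the 4 libraries and Dnajc7 between 51.0 and 65.1. Of the co-chaperones, Ahsa1, which activates the ATPase of HSP90, lay between 84.2 and 124, Cdc37, which brings kinases to HSP90, between 94.3 and 123, Bag1, a nucleotide exchange factor of HSP70, between 103 and 114, and St13 between 67.9 and 99.4. Hsf2, a relative of Hsf1, had 3.16 and 3.03 (WT), then 4.66 and 5.02 (CD274-null), and Hsbp1, which binds HSF1 trimers, lay between 46.4 and 63.0. Of the 9 small heat shock protein genes only Hspb6, between 9.40 and 11.4, and Hspb1, between a listed 0 and 1.45, were tested.

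Between the CD274-null libraries, 6 of the 75 network genes (8%, beside 3.37% of all tested genes) were at least 2-fold above in replicate 2, named here after their values were seen. They were Hspa1l, whose FPKM was 2.95 in replicate 1 and 14.3 in replicate 2, Dnajb4 with 12.4 and 38.8, Bag3 with 12.5 and 34.2, Hspa2, Dnajb13 and Hspb1. Hspb1 rests on 0 and 13 reads in these libraries and passed the filter on low values only through replicate 2. Bag3 is a heat-induced partner of HSP70, and Dnajb4 a relative of Dnajb1. The chaperonins and the HSP90 co-chaperones had 0 of 9 and 0 of 16 such genes, with medians of -0.35 and -0.16.

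**Figure D5:**
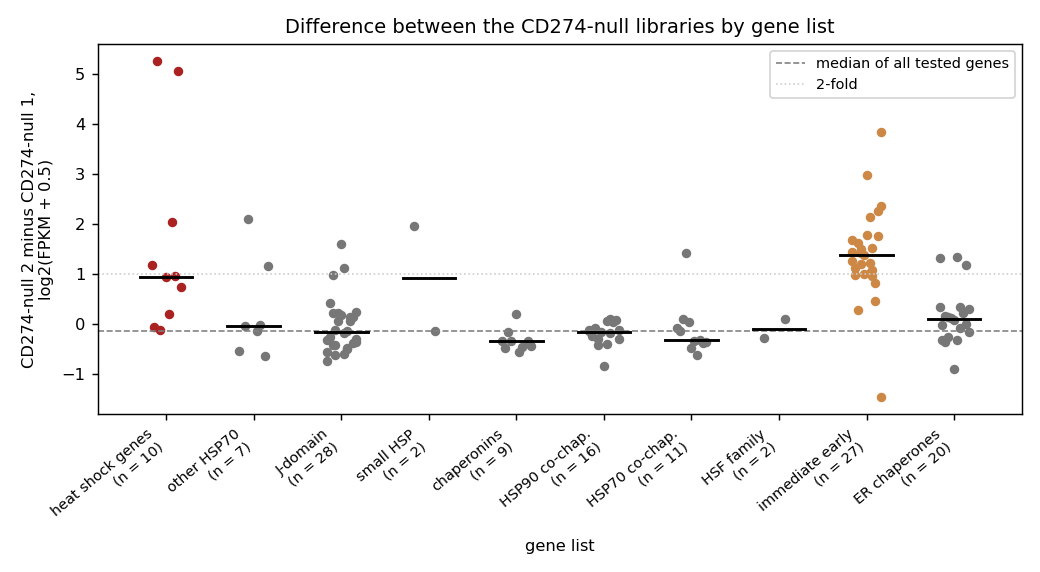
Difference between the CD274-null libraries in log2(FPKM + 0.5), 1 point per tested gene and 1 column per gene list, with the list's median as a black bar, the median of all tested genes dashed and a 2-fold difference dotted. The heat shock genes (median 0.94) and the immediate early genes (1.38) lie above the other lists of more than 2 genes.

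The immediate early genes, mostly transcription factors that many stimuli switch on without new protein synthesis, were set beside the heat shock genes. Of 28 listed, 27 were tested, and 2 passed the thresholds as higher in the libraries labelled CD274-null (7.41%, beside 3.63% of all tested genes), Nr4a2 (log2 fold change 2.16, FPKM 0.981 and 0.499, then 3.38 and 7.08) and Fosl2 (1.46, FPKM 8.71 and 6.41, then 18.3 and 25.2), with an adjusted p = 0.251 for each from limma. Between the CD274-null libraries 20 of the 27 (74.1%, beside 3.37% of all tested genes) were at least 2-fold above in replicate 2 and 1, Socs3, at least 2-fold below, with a median difference of 1.38. Jun had an FPKM of 491 and 444 (WT), then 127 and 650.4 (CD274-null), and Fos had 509 and 424 and then 185 and 625. As with Hspa1a and Hspa1b, CD274-null replicate 1 was the lowest and replicate 2 the highest library for both. The order differed in WT for some genes: Egr1, named after its values were seen, had 489 in WT replicate 1 and 81.3 in WT replicate 2, where Hspa1a was 12.4 and 13.3.

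The endoplasmic reticulum answers misfolding inside it with chaperones of its own, and the list of this response held its chaperones and folding enzymes together with Herpud1 and the transcription factors Xbp1, Atf4 and Ddit3. Of 20 listed genes, all tested, 0 passed the thresholds in limma, by voom as well, beside 3.63% of all tested genes, and 2 (10%) had an unadjusted p under 0.05, beside 13.7%. Hspa5, which encodes BiP, had an FPKM of 698 and 650.4 (WT), then 647 and 1621 (CD274-null), and Calr had 537 and 939 and then 875 and 1112. Between the CD274-null libraries 3 of the 20 (15.0%, beside 3.37%) were at least 2-fold above in replicate 2, Hspa5, Ddit3 and Dnajb9, and the median difference was 0.09.

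Genes outside all lists whose values over the 4 libraries were most like the mean of Hspa1a and Hspa1b were sought among 9131 genes whose mean FPKM reached 5, by the Euclidean distance between centred log2(FPKM + 0.5) values. Among the nearest were Mid1 (distance 0.91), Lif (1.11), Rtn2 (1.65) and Arc (1.78). Their FPKM in CD274-null replicate 2 was 15.9, 19.0, 17.95 and 61.5, and in replicate 1 it was 0.248, 1.04, 0.614 and 9.32. Mid1, Lif and Rtn2 reached the mean of 5 only through CD274-null replicate 2, so the filter itself favoured this pattern.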

How the data were processed

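Total RNA, of LICs sorted by FACS per the labels and of tissue per the methods, was made into 4 TruSeq v2 libraries and sequenced on a HiSeq2500. Alignment by the authors was to GRCm38, with TopHat2 (version 2.0.12 in the submitters' processing notes, with CASAVA 1.8.2) and deposited 1 FPKM value per NCBI gene number and library. The program, gene lengths, strand setting and treatment of multiple matches behind FPKM are not given in the sources used here. Groups and replicate numbers came from the sample labels, and 0 sample columns were left unassigned. The genes, chosen by name, and the lists were picked with earlier results of these data known.

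Gene numbers were named from RefSeq (GRCm38.p6), where 25275 of 27179 matched. Within a gene, FPKM stands in ratios of whole reads once relative depth is known (0.880, 0.7645 and 0.861 of WT replicate 1 for WT replicate 2 and CD274-null replicates 1 and 2), and reads were recovered for 17083 of 17083 genes above 0 in at least 2 libraries. They are lower bounds where all 4 libraries share a factor, which makes the intervals too wide and not too narrow.

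Log2(FPKM + 0.5) was compared for the 13230 genes whose mean FPKM reached 0.5, using limma's lmFit and trended eBayes (limma 3.58.1, R 4.3.3) without covariates, and adjusted by Benjamini-Hochberg over all of them. On simulated reads with 197 genes changed by a known fold, 98.5% of these and 0.783% of the unchanged genes passed the thresholds. The simulated spread was set and not taken from these libraries, so this checks the calculation only. Folds between 2 libraries are ratios of FPKM, with exact binomial intervals from recovered reads (scipy 1.17.1). Named genes were the 10 heat shock genes and, in each list, called genes and the 2 with the highest mean FPKM. Promoter windows came from RefSeq, and shared 50-base stretches from GENCODE M21 transcripts, also of GRCm38. Alternatives were other pseudocounts, filters, scalings, variance models, a replicate block, GC correction, voom and leaving out each library. Values of some genes that these rules name are not reported here.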

Additional observations from a re-analysis of the deposited data

How the results depend on the processing

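The number of heat shock genes past the thresholds was 0 in each alternative fit with all 4 libraries, where 170 to 526 of all genes passed. Of 161 alternative values for single genes, 145 kept their direction and their side of the thresholds, and 11 changed sign. The others, each with a library left out, kept their direction with a larger fold change. The sign of Hspd1, near 0 in the fits with all 4 libraries, turned with quantile normalization (0.00724) and with GC correction, without and with the replicate block (0.000488 each), and with a library left out its log2 fold change ran from -0.59 to 0.59. With a library left out, the ranges were -1.96 to 3.30 for Hspa1a, -1.71 to 3.36 for Hspa1b, -0.0323 to 1.996 for Dnajb1, -0.16 to 0.59 for Hsp90aa1 and -0.0224 to 0.91 for Hspa8. Hspa1a and Hspa1b summed to 1 value did not pass.

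Over all genes, 480 passed, 170 without moderation and 147 to 634 with a library left out (147 without CD274-null replicate 2, 235 without CD274-null replicate 1). Of the chaperone network 2 passed, against 0 without moderation, 1 with no filter, quantile normalization, equal medians, no trend or GC correction, and 1 to 4 with a library left out (4 without WT replicate 1). Of the immediate early genes 2 passed, against 1 at a mean FPKM of at least 5, 0 without moderation, 4 with the replicate block and 2 to 3 with a library left out. Causes were not tested. The replicate numbers share no stated origin and their deviations correlated at -0.02, so the block (526 genes, and 0 of the 10) is only a number shared. The 72 reads behind the lowest Hspa1a value set the width of its interval, 35.5 to 57.3. The GC correction for the difference between the CD274-null libraries was chosen after seeing the data, as were its other scalings, under which 4 to 6 of the 10 genes were at least 2-fold above, and leaving Hspa1a and Hspa1b out of the inducible genes.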
